A study of Homo sapiens with 4 samples.

Results

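Genes of extracellular adenosine were followed after silencing of PCBP2 in MDA-MB-231, an established line from a human triple-negative breast cancer. PCBP2 is a protein that binds runs of cytosine in RNA. The genes were chosen by name: NT5E, ENPP1 and ADORA2B, with ADK, ADA, PNP, DPP4, ENTPD1, ALPL and ADORA1 where listed. Of these 10 genes, 5 stood in the table of 7698 protein-coding genes, namely NT5E, ENPP1, ADORA2B, ADK and PNP; the other 5 were not analysed here. The groups were 2 libraries of MDA-MB-231 cells given siPCBP2, a small interfering RNA against PCBP2, and 2 libraries of untreated MDA-MB-231 cells. A treatment label of the siPCBP2 libraries reads as if PCBP2 itself had been transfected, against their titles and sources, by which the groups were set. The labels name no control RNA for the untreated cells, so silencing and transfection cannot be told apart, and no dose, time or siRNA sequence is used here. Nothing in the labels ties the 2 libraries of a group to separate cultures, so a p-value here reflects only how these libraries varied, possibly for technical reasons. In bulk RNA, fewer cells of a type and less RNA per cell cannot be told apart.

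Adenosine outside the cell is made from released ATP in steps. ENTPD1 (CD39) or ENPP1 cuts ATP towards AMP, and NT5E (CD73), an enzyme held on the outer membrane by a glycosylphosphatidylinositol (GPI) anchor, takes the last phosphate off AMP. Adenosine then signals through receptors such as ADORA2B, which couples to the stimulatory G protein and raises cyclic AMP, or it is taken up by nucleoside transporters and returned to AMP by ADK or broken down by ADA and PNP. CD73 is known in breast cancer for its high level on triple-negative tumours and for restraining immune cells through adenosine.

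The sequences below show the start regions of the enzyme genes NT5E and ENPP1 and the cytosine runs of their 3' ends, since PCBP2 binds cytosine-rich RNA and the study's design includes a pull-down for its binding site in NT5E mRNA. NT5E (ENSG00000135318) lies on chromosome 6 at 85449584 to 85495791, ENPP1 (ENSG00000197594) on chromosome 6 at 131808016 to 131895155 and ADORA2B (ENSG00000170425) on chromosome 17 at 15944917 to 15975746, all on the plus strand of hg38. The 250 bases before the RefSeq start (GRCh38.p14, plus strand) were chr6:85449833-85450082 for NT5E and chr6:131807770-131808019 for ENPP1. Capitals mark the GC box GGGCGG or its complement CCGCCC, the core of the cyclic AMP response element TGACG or CGTCA, and the hypoxia factor core ACGTG or CACGT, searched on both strands.

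NT5E promoter: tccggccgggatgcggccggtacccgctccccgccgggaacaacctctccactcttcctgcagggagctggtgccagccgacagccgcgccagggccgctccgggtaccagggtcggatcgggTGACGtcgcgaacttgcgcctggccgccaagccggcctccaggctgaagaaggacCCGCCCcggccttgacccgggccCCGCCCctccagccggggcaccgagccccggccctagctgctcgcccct

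ENPP1 promoter: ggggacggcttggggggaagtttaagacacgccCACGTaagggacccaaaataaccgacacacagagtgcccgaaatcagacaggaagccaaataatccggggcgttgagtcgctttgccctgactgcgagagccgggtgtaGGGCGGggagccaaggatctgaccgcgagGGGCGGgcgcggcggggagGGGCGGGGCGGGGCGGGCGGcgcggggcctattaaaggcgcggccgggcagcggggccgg

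The NT5E window held 2 GC boxes, at 72 and 49 bases before the start, and 1 core of the cyclic AMP response element at 127 bases before it. The ENPP1 window held 6 GC boxes between 108 and 46 bases before the start, of which the last 4 stand in 1 stretch, and 1 hypoxia factor core at 217 bases before it. The last few bases of the ENPP1 window lie past the GENCODE start of the gene. The window of ADORA2B, which is not printed and lies mostly past the GENCODE start, held 2 GC boxes and 1 core of the cyclic AMP response element. Of 35116 RefSeq promoter windows of this length, 42.6% held a GC box, 21.2% a core of the cyclic AMP response element and 18.5% a hypoxia factor core. These matches are descriptions of letters, not of bound sites. In GENCODE 29, 1 coding transcript of NT5E starts further upstream. The printed NT5E window thus lies past the GENCODE start of the gene, in the first exon of that transcript.

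The 3' UTR of NT5E, in its principal transcript, was 1774 bases long and held a single run of 4 or more cytosines, 0.564 runs per kb. That of ENPP1 was 4644 bases long and held 11 such runs, 2.37 per kb, and that of ADORA2B was 404 bases long and held 0. Over the 7468 listed genes with a 3' UTR of at least 50 bases, the median was 2.20 runs per kb, with quartiles at 0.615 and 6.05. The word CCCTCC occurred 0 times in the 3' UTRs of NT5E and ADORA2B and 1 time in that of ENPP1, and it was present in 2976 of the 7468. Only the transcript strand was searched, and the 2 words can overlap. The run of NT5E and the 4 runs of ENPP1 that hold 5 or 6 cytosines follow, with the run in capitals, the first base of the run counted after the stop codon, and 30 bases in each line.

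NT5E, base 600, chr6:85494591-85494620: taattatcaatagCCCCaagctcatggatg

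ENPP1, base 3304, chr6:131893802-131893831: actgatctctactCCCCCagtttgaatggt

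ENPP1, base 4009, chr6:131894508-131894537: agctcagacaatCCCCCCgccttggcctcc

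ENPP1, base 4305, chr6:131894803-131894832: ggaacagggaccaCCCCCtcctctgggaga

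ENPP1, base 4330, chr6:131894828-131894857: ggagaagctgttaCCCCCttcacttttcct

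NT5E thus lay below the lower quartile of cytosine runs per kb, and ENPP1 lay near the median. No match in these windows says nothing of binding elsewhere in the mRNA or to other cytosine-rich words.

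No unit stands in the header, and the values were read as FPKM, which scales fragments by the length of the gene and the size of the library. Library sums were 378204 and 352964 FPKM in siPCBP2 and 371693 and 376347 FPKM in untreated libraries, and sequencing depth is unknown. PCBP2 mRNA, the check of the labels, measured 16.6 and 16.7 FPKM in siPCBP2 cells, against 101.4 and 92.9 FPKM in untreated cells. All 6 marker genes of the line were listed, among them VIM with 474.7 and 502.0 FPKM in siPCBP2 cells and 536.4 and 491.2 FPKM in untreated cells. Of the 6, PLAU and CAV1 had no overlap between groups, both lower in siPCBP2 cells, beside 29.4% of the 7689 genes tested. PLAU measured 55.5 and 54.1 FPKM in siPCBP2 cells, against 103.1 and 81.8 FPKM in untreated cells, and CAV1 measured 78.1 and 80.1 FPKM in siPCBP2 cells, against 85.5 and 84.8 FPKM in untreated cells. Of 7 luminal and HER2 genes 2 were listed, and neither overlapped between groups. ERBB2 was higher in siPCBP2 cells, beside 19.7% of all genes tested with that pattern, and KRT19 was lower, beside 29.4%. ERBB2 measured 16.7 and 21.3 FPKM in siPCBP2 cells, against 15.2 and 11.9 FPKM in untreated cells, and KRT19 measured 43.5 and 41.2 FPKM in siPCBP2 cells, against 49.5 and 48.6 FPKM in untreated cells. Their part in the results was not tested. Of 15 immune, blood, fibroblast and endothelial genes 0 were listed.

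NT5E mRNA fell in siPCBP2 cells. It measured 50.3 and 54.0 FPKM in siPCBP2 cells, against 143.4 and 145.2 FPKM in untreated cells. The groups lay far apart beside the spread within each, at 52.2 ± 2.58 FPKM in siPCBP2 and 144.3 ± 1.27 FPKM in untreated cells (SD, n = 2), so that 36.1% of the untreated level was left. Among the 7689 genes tested, the NT5E level stood at percentiles 86.9 and 88.8 in siPCBP2 libraries and at 96.7 and 97.0 in untreated libraries, so NT5E was still among the higher expressed genes after silencing. By limma on log2(FPKM + 1), the log2 fold change of siPCBP2 over untreated was -1.45 (95% interval -1.71 to -1.20, adjusted p = 0.0418), with the third smallest p and the sixteenth largest fall of all genes tested. Only 4 of 7689 genes, 0.0520%, passed an adjusted p of 0.05 in either direction. The study's title names NT5E as regulated by PCBP2 and its design speaks of RNA sequencing as the screen for downstream genes, so the direction of NT5E here is not independent evidence.

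The call of NT5E depended on the settings of the fit. By limma its adjusted p was 0.0918 after quantile normalization, 0.0604 after scaling to 1 common total and 0.0772 without a mean-variance trend. The call was also lost with any 1 library left out, in fits that have fewer degrees of freedom for every gene. The log2 fold change of NT5E kept between -1.50 and -1.40. Calls fell over all genes tested too, from 4 to 2 after quantile normalization, 2 after scaling to 1 common total and 0 without a trend. In the authors' deposited table, the fold of untreated over siPCBP2 was 2.76 for NT5E (p = 0.00588, q = 0.520). The value pools all transcripts of the gene, of which GENCODE 29 lists 5 as coding. The principal one has 9 exons and encodes 574 residues, and the one that starts upstream has 8 exons and encodes 524 residues.

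**Figure D1:**
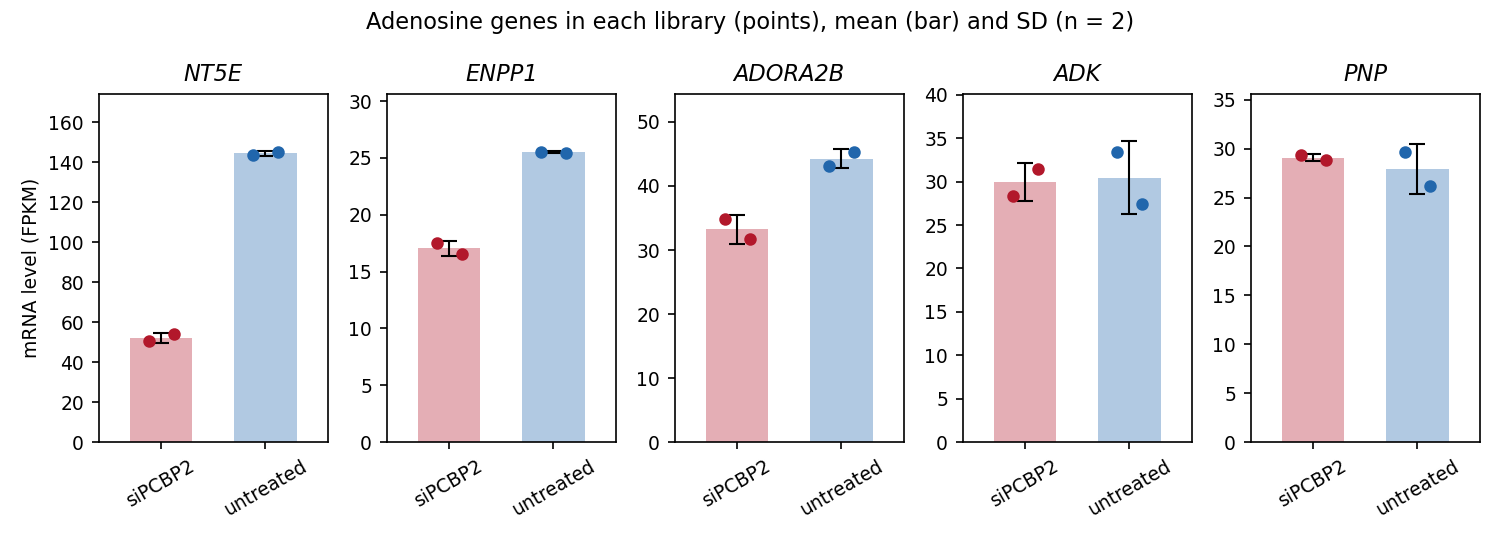
FPKM of the 5 listed adenosine genes in each library, with the siPCBP2 group left of the untreated group in each panel, points for libraries, bars for means and error bars for the SD (n = 2); each panel has its own axis from 0. NT5E, ENPP1 and ADORA2B had no overlap between groups, at 52.2, 17.1 and 33.2 FPKM in siPCBP2 cells against 144.3, 25.5 and 44.3 FPKM in untreated cells, whereas ADK and PNP overlapped. Of all 7689 genes tested, 29.4% were lower in siPCBP2 cells without overlap and 19.7% were higher.

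ENPP1, which cuts ATP to AMP and pyrophosphate and also degrades the immune messenger cGAMP outside the cell, had lower values in siPCBP2 cells that did not pass. It measured 17.5 and 16.6 FPKM in siPCBP2 cells, against 25.6 and 25.4 FPKM in untreated cells. The groups did not overlap, as for 29.4% of all genes tested that were lower in siPCBP2 cells without overlap. The means were 17.1 ± 0.671 FPKM in siPCBP2 and 25.5 ± 0.0862 FPKM in untreated cells (SD, n = 2). The log2 fold change by limma was -0.55 (95% interval -0.84 to -0.26, unadjusted p = 0.00400, adjusted p = 0.174). In the authors' deposited table, its fold of untreated over siPCBP2 was 1.49 (p = 0.0870, q = 0.595).

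ADORA2B, the receptor with low affinity for adenosine, measured 34.8 and 31.6 FPKM in siPCBP2 cells, against 43.2 and 45.4 FPKM in untreated cells. Both siPCBP2 values were below both untreated values, a pattern that 29.4% of all genes tested had. The means were 33.2 ± 2.22 FPKM in siPCBP2 and 44.3 ± 1.54 FPKM in untreated cells (SD, n = 2). The log2 fold change by limma was -0.41 (95% interval -0.69 to -0.12, unadjusted p = 0.0142, adjusted p = 0.229), which did not pass. Its unadjusted p by limma was 0.0505 without siPCBP2 2 and 0.0781 without untreated 2. In the authors' deposited table, its fold of untreated over siPCBP2 was 1.33 (p = 0.1005, q = 0.597).

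ADK and PNP, which act inside the cell on adenosine and on inosine, showed no such separation. ADK, which phosphorylates adenosine to AMP, measured 28.4 and 31.5 FPKM in siPCBP2 cells, against 33.5 and 27.5 FPKM in untreated cells. PNP, which splits inosine and guanosine into base and sugar phosphate, measured 29.3 and 28.8 FPKM in siPCBP2 cells, against 29.7 and 26.1 FPKM in untreated cells. The values of each gene overlapped between groups. The log2 fold change by limma was -0.02 for ADK (95% interval -0.38 to 0.34, adjusted p = 0.957) and 0.06 for PNP (95% interval -0.25 to 0.36, adjusted p = 0.833), so changes within these intervals could not be told from none. In the authors' deposited table, the fold of untreated over siPCBP2 was 1.02 for ADK and 0.960 for PNP.

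Counted together, 3 of the 5 listed genes were lower in siPCBP2 cells at an unadjusted limma p under 0.05, beside 9.73% of all genes tested, and 0 were higher, beside 5.67%. The same 3 had groups without overlap, lower in siPCBP2, where 29.4% of all genes had that pattern and 19.7% the opposite one. The median log2 fold change was -0.41 over the 5 genes and -0.04 over all genes tested. Of the 5, only NT5E passed an adjusted limma p of 0.05, beside 0.0520% of all genes tested. The genes were named with earlier results of these data known, so these counts carry no test.

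The order of levels, which FPKM gives per length, was the same at the top and the bottom of both groups. NT5E was highest and ENPP1 lowest of the 5, ADORA2B was second, and ADK and PNP lay between with overlapping ranges in each group. In untreated cells, ENPP1 lay 1 SD of PNP or less under PNP, at 25.5 and 27.9 FPKM. The levels of NT5E and its neighbours in the pathway were closer together in siPCBP2 cells. NT5E over ENPP1 was 2.87 and 3.26 in siPCBP2 libraries, against 5.61 and 5.71 in untreated libraries. NT5E over ADORA2B was 1.45 and 1.71 in siPCBP2 libraries, against 3.32 and 3.20 in untreated libraries. ENPP1 over ADORA2B moved less, with 0.504 and 0.524 in siPCBP2 libraries and 0.592 and 0.561 in untreated libraries. With 2 libraries against 2, no exact permutation test of a ratio can reach a p of 0.05, so the ratios are a description.

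NT5E was also set beside the cytosolic 5'-nucleotidases, which take phosphate off nucleotides inside the cell. The 4 listed genes named NT5C, NT5C2, NT5C3A and NT5C3B summed to 112.2 and 90.3 FPKM in siPCBP2 libraries, against 108.7 and 111.9 FPKM in untreated libraries. NT5E made up 31.0% and 37.4% of the summed FPKM of these 5 genes in siPCBP2 libraries, against 56.9% and 56.5% in untreated libraries. NT5C2, which prefers IMP and GMP, measured 56.0 and 35.3 FPKM in siPCBP2 cells, against 54.0 and 49.1 FPKM in untreated cells. In siPCBP2 1 but not in siPCBP2 2 the level of NT5C2 thus exceeded that of NT5E.

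**Figure D2:**
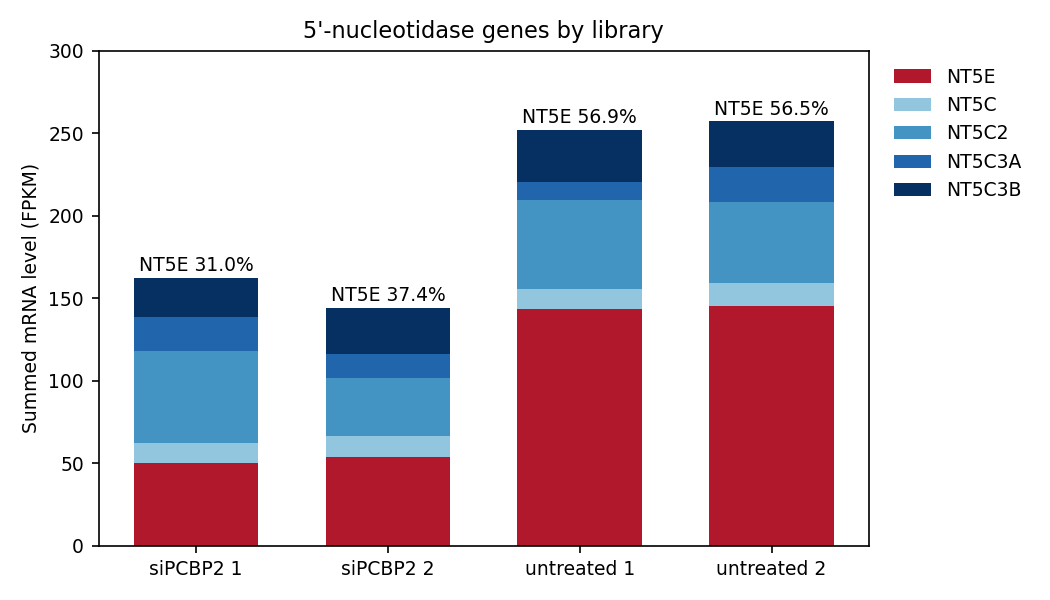
Stacked FPKM of NT5E and the 4 listed cytosolic 5'-nucleotidase genes in each library, siPCBP2 libraries left and untreated libraries right, with the share of NT5E above each bar. The NT5E share was 31.0% and 37.4% in siPCBP2 libraries and 56.9% and 56.5% in untreated libraries.

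Beyond the 5 genes, 103 listed genes of 9 lists of related biology were read from the same fit. Of them, 0 passed an adjusted p of 0.05 by limma. At an unadjusted p under 0.05, the siPCBP2 values were below the untreated ones in 4 of the 103, beside 9.73% of all genes tested, and above them in 13, beside 5.67%. These 2 shares are also the background of each list count that follows. Their median log2 fold change was 0.06, and the groups did not overlap in 18 genes that were lower, beside 29.4% of all genes tested, and in 27 that were higher, beside 19.7%.

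Other ectonucleotidases and nucleotide release channels counted 9 listed genes, with 0 lower and 2 higher where the unadjusted limma p was under 0.05 (9.73% and 5.67% of all genes tested) and a median log2 fold change of 0.06. LRRC8D, a subunit of the volume-regulated anion channel, measured 17.0 and 16.8 FPKM in siPCBP2 cells, against 11.2 and 10.3 FPKM in untreated cells (adjusted p = 0.174). ENTPD7, a nucleotidase of internal membranes, measured 11.1 and 11.9 FPKM in siPCBP2 cells, against 7.93 and 6.77 FPKM in untreated cells (adjusted p = 0.221 by limma). Both had no overlap between groups and neither passed. Of the 9 genes, 4 were higher without overlap, beside 19.7% of all genes tested, and 0 were lower, beside 29.4%. PANX1, the pannexin channel that releases ATP, measured 27.3 ± 2.30 FPKM in siPCBP2 cells and 23.8 ± 1.90 FPKM in untreated cells (SD, n = 2), and CANT1, a calcium-activated nucleotidase, 22.4 ± 0.992 FPKM in siPCBP2 cells and 23.3 ± 1.13 FPKM in untreated cells.

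Receptors of adenosine and nucleotides and nucleoside transporters counted 6 listed genes, with 0 lower and 1 higher where the unadjusted limma p was under 0.05 and a median log2 fold change of 0.14. The one was P2RX4, an ion channel opened by ATP, with 7.33 ± 0.944 FPKM in siPCBP2 cells and 4.77 ± 0.162 FPKM in untreated cells (SD, n = 2; adjusted p = 0.287 by limma). SLC29A1, the main equilibrative transporter that carries adenosine across the membrane, measured 57.3 and 48.0 FPKM in siPCBP2 cells, against 49.96 and 50.2 FPKM in untreated cells. Its groups overlapped, and NT5E over SLC29A1 was 0.879 and 1.13 in siPCBP2 libraries, against 2.87 and 2.89 in untreated libraries. P2RY11, a receptor for ATP, measured 9.20 ± 3.02 FPKM in siPCBP2 cells and 6.59 ± 0.603 FPKM in untreated cells (SD, n = 2).

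Inside the cell, AMP and adenosine handling and purine salvage counted 16 listed genes, with 0 lower and 1 higher where the unadjusted limma p was under 0.05 and a median log2 fold change of 0.03. The higher one was APRT, which turns adenine into AMP, with 19.1 and 16.2 FPKM in siPCBP2 cells, against 12.3 and 12.2 FPKM in untreated cells (adjusted p = 0.229). AHCY, which frees adenosine from S-adenosylhomocysteine, measured 98.6 ± 4.19 FPKM in siPCBP2 cells and 92.8 ± 1.04 FPKM in untreated cells (SD, n = 2). Purine synthesis counted 12 genes, with 1 lower, 1 higher and a median of -0.09. GMPS, which makes GMP, measured 14.9 and 13.3 FPKM in siPCBP2 cells, against 18.6 and 21.2 FPKM in untreated cells (adjusted p = 0.236 by limma). PRPS2, which makes the ribose donor, measured 47.1 and 48.2 FPKM in siPCBP2 cells, against 35.2 and 32.4 FPKM in untreated cells (adjusted p = 0.188 by limma). IMPDH2 measured 109.2 ± 7.17 FPKM in siPCBP2 cells and 104.3 ± 8.13 FPKM in untreated cells, and PAICS differed more within the untreated group, at 44.9 and 119.9 FPKM, than between groups.

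Genes of cyclic AMP signalling, which ADORA2B engages, counted 18, with 1 lower and 1 higher where the unadjusted limma p was under 0.05 and a median log2 fold change of 0.07. PDE8A, a phosphodiesterase that degrades cyclic AMP, measured 15.9 and 13.0 FPKM in siPCBP2 cells, against 23.2 and 18.4 FPKM in untreated cells (adjusted p = 0.289). ADCY3, an adenylyl cyclase, measured 23.3 and 21.5 FPKM in siPCBP2 cells, against 17.8 and 17.8 FPKM in untreated cells (adjusted p = 0.306 by limma). GNAS, the stimulatory G protein subunit, measured 129.7 ± 19.9 FPKM in siPCBP2 cells and 140.0 ± 11.8 FPKM in untreated cells (SD, n = 2), and GNAI2, an inhibitory subunit, 77.2 ± 12.4 FPKM in siPCBP2 cells and 79.2 ± 5.23 FPKM in untreated cells.

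Since CD73 needs a GPI anchor to stay on the membrane, genes that build or remodel the anchor were counted, of which 15 were listed. Where the unadjusted limma p was under 0.05, 0 were lower and 2 higher, and the median log2 fold change was 0.10. PIGS, a subunit of the transamidase that attaches the anchor, measured 19.5 and 19.4 FPKM in siPCBP2 cells, against 9.74 and 13.1 FPKM in untreated cells (adjusted p = 0.188). DPM3, of the mannose donor synthase, measured 34.8 ± 2.11 FPKM in siPCBP2 cells and 27.5 ± 0.954 FPKM in untreated cells (adjusted p = 0.288 by limma). PIGT, another transamidase subunit, measured 57.8 and 42.2 FPKM in siPCBP2 cells, against 45.97 and 44.1 FPKM in untreated cells, and DPM1 measured 44.2 ± 0.499 FPKM in siPCBP2 cells and 47.5 ± 4.10 FPKM in untreated cells (SD, n = 2).

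Other proteins held by a GPI anchor counted 10, with 1 lower and 3 higher where the unadjusted limma p was under 0.05 (9.73% and 5.67% of all genes tested) and a median log2 fold change of 0.17. The lower one was PRNP, the prion protein, with 129.5 and 114.4 FPKM in siPCBP2 cells, against 154.6 and 160.5 FPKM in untreated cells (adjusted p = 0.236). CD55, which protects cells from complement, measured 71.8 and 77.4 FPKM in siPCBP2 cells, against 52.3 and 54.3 FPKM in untreated cells (adjusted p = 0.181 by limma). EFNA5, an ephrin ligand, measured 17.5 ± 0.188 FPKM in siPCBP2 cells and 13.7 ± 0.324 FPKM in untreated cells, and LY6E 27.5 ± 0.108 FPKM in siPCBP2 cells and 18.1 ± 6.48 FPKM in untreated cells (SD, n = 2). BST2 measured 52.7 ± 4.55 FPKM in siPCBP2 cells and 47.7 ± 0.268 FPKM in untreated cells, and the urokinase receptor PLAUR 38.4 ± 5.77 FPKM in siPCBP2 cells and 37.5 ± 1.12 FPKM in untreated cells. None of these proteins had a fold change near that of NT5E, as the lowest log2 fold change among them was -0.37.

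Hypoxia and TGF-beta regulators, of which the hypoxia factor HIF-1 is known to raise NT5E transcription, counted 12, with 1 lower and 1 higher where the unadjusted limma p was under 0.05 and a median log2 fold change of -0.04. SP1, a transcription factor that binds GC boxes, measured 15.2 and 15.5 FPKM in siPCBP2 cells, against 20.9 and 21.3 FPKM in untreated cells (adjusted p = 0.227). TGFBR1 measured 29.2 and 20.7 FPKM in siPCBP2 cells, against 18.6 and 11.2 FPKM in untreated cells (adjusted p = 0.315 by limma). HIF1A measured 104.3 ± 3.83 FPKM in siPCBP2 cells and 110.9 ± 4.32 FPKM in untreated cells, and SMAD3 48.4 ± 6.76 FPKM in siPCBP2 cells and 44.6 ± 4.08 FPKM in untreated cells (SD, n = 2). The part of these regulators in the level of NT5E was not tested.

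CD73 is also used as a surface marker of mesenchymal stromal cells. Of that list 5 other genes were listed, with 0 lower and 1 higher where the unadjusted limma p was under 0.05 and a median log2 fold change of -0.0089. The higher one was ITGA5, a subunit of the fibronectin receptor, with 29.2 and 31.6 FPKM in siPCBP2 cells, against 21.0 and 22.9 FPKM in untreated cells (adjusted p = 0.222). CD44 measured 427.5 and 266.9 FPKM in siPCBP2 cells, against 328.1 and 352.1 FPKM in untreated cells, and ITGB1 measured 216.5 and 259.0 FPKM in siPCBP2 cells, against 248.6 and 289.1 FPKM in untreated cells.

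**Figure D3:**
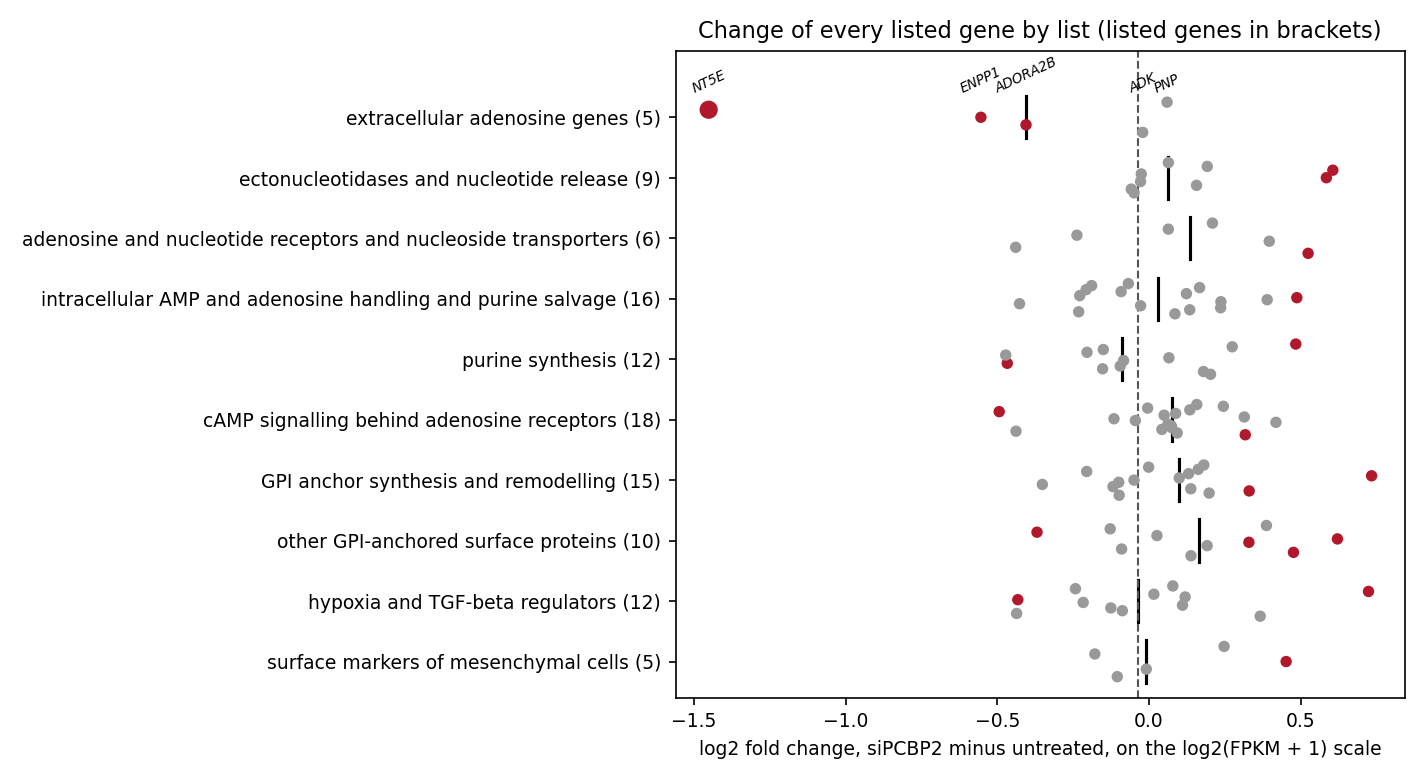
Log2 fold change of siPCBP2 minus untreated for each listed gene (points) by list, on the log2(FPKM + 1) scale; red points have an unadjusted limma p under 0.05, the large point an adjusted p under 0.05, black ticks are list medians and the dashed line is the median of all genes tested (-0.04). NT5E stands at -1.45, while the 103 genes of the other 9 lists lie between -0.49 and 0.73.

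The chromosome neighbours of the 3 lower genes were read as well. At an unadjusted limma p under 0.05, 9.73% of all genes tested were lower and 5.67% higher, which is the background of these counts. Within 1 Mb of the start of NT5E, 2 listed genes begin, SNX14 and SYNCRIP, both lower in mean and neither past an unadjusted limma p of 0.05. SNX14, a sorting nexin, measured 18.2 and 22.4 FPKM in siPCBP2 cells, against 28.2 and 24.4 FPKM in untreated cells. SYNCRIP, an RNA-binding protein, measured 42.9 and 44.7 FPKM in siPCBP2 cells, against 47.5 and 61.4 FPKM in untreated cells. Their log2 fold changes were -0.36 and -0.29 beside -1.45 for NT5E. Of 3 neighbours of ENPP1, 1 reached an unadjusted p under 0.05, CTGF, a secreted matrix-associated protein that starts 143.4 kb away and measured 39.2 and 38.0 FPKM in siPCBP2 cells, against 67.5 and 72.4 FPKM in untreated cells (unadjusted p = 0.000362, adjusted p = 0.106 by limma). EPB41L2 and MED23, the other two, had log2 fold changes of 0.31 and 0.30. Of 9 neighbours of ADORA2B, 2 reached an unadjusted limma p under 0.05 (9.73% of all genes tested were lower and 5.67% higher). The 2 were CDRT4 with a log2 fold change of 0.56 and TVP23C-CDRT4 with -1.96. TVP23C-CDRT4 had low values, 0 and 0.497 FPKM in siPCBP2 cells, against 4.84 and 2.90 FPKM in untreated cells. It is a readthrough locus with CDRT4. The sources used here do not say how fragments were divided between these 2 genes, and its part in their fold changes was not tested. The other 7 neighbours of ADORA2B, PMP22, TRIM16, ZNF286A, TTC19, NCOR1, CENPV and UBB, had log2 fold changes between -0.28 and 0.21.

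The profiles most like that of NT5E were found by the root-mean-square distance between log2(FPKM + 1) values of the 4 libraries, each gene centred on its own mean. Among the 5 nearest were HNRNPA3, HIST1H2BE, ARHGDIB and DYNC1I2, at distances of 0.0372, 0.0779, 0.0992 and 0.134. HNRNPA3, a nuclear RNA-binding protein, measured 32.2 and 33.6 FPKM in siPCBP2 cells, against 88.5 and 87.1 FPKM in untreated cells. ARHGDIB measured 23.1 and 22.5 FPKM in siPCBP2 cells, against 55.7 and 65.7 FPKM in untreated cells. HIST1H2BE, a histone gene with near-identical copies, averaged 8.77 FPKM in siPCBP2 and 25.6 FPKM in untreated cells, and DYNC1I2, a dynein chain, 22.3 FPKM in siPCBP2 and 52.2 FPKM in untreated cells. Likeness over 4 libraries in 2 groups is mostly likeness in the size of the fall, and it is given as a description.

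Of the 5 adenosine genes, NT5E and ADORA2B shared no exon with another annotated gene. Exons of ENPP1 overlapped those of 1 processed pseudogene on the opposite strand, those of ADK overlapped 1 processed pseudogene on its strand and 1 antisense gene, and those of PNP overlapped 1 noncoding gene on the opposite strand. The sources used here do not say whether strand was kept in counting, so the values of ENPP1, ADK and PNP may hold fragments of these partners.

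**Figure D4:**
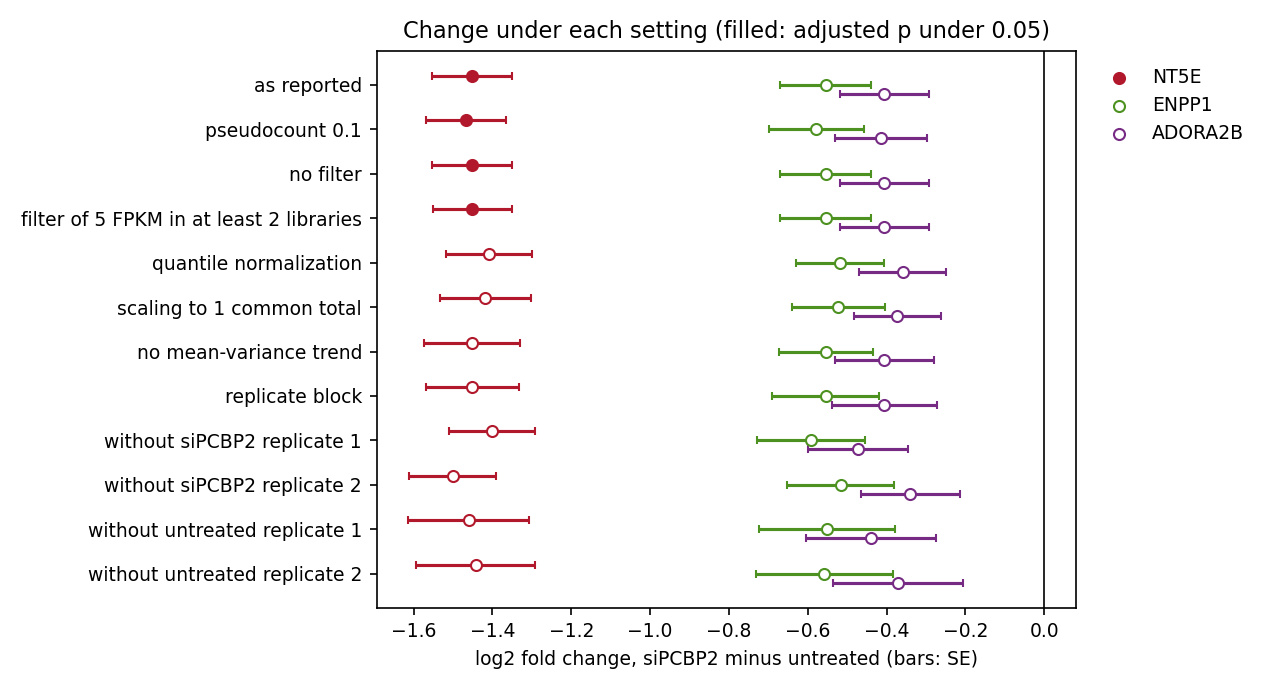
Log2 fold change of NT5E, ENPP1 and ADORA2B in siPCBP2 against untreated cells under each setting, with SE bars and filled points where the adjusted limma p was under 0.05. NT5E lay between -1.50 and -1.40, ENPP1 between -0.59 and -0.52 and ADORA2B between -0.47 and -0.34 in the 11 alternatives, and NT5E kept its call in 3 of them.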

How the data were processed

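Poly(A) RNA was captured on poly-T beads and, after fragmentation and random priming, read from both ends, per the labels' protocols. HISAT2 2.0, Trimmomatic 0.36, bedtools 2.26.0, FastQC 0.11.2 and hg38 are named as tools and build, per the submitters' processing notes. Sources used here name no quantifier, annotation or listing rule. The deposited values were read as FPKM, because they are never negative, not whole and sum to unequal totals. These traits do not settle the unit, since only the listed genes were summed and another scaled unit could show them too. The authors' deposited fold, a ratio, equalled the untreated mean plus 0.1 over the siPCBP2 mean plus 0.1 for each of 7698 genes (relative tolerance 1e-06). The test behind the authors' deposited p-values and q-values is not given in the sources used here. Between 23 and 36 genes per library lay under 1 FPKM, too few low values to recover reads, so no counting interval is given.

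A gene was tested if 2 or more libraries reached 1 FPKM, which left out 9. On log2(FPKM + 1), a model was fitted in R 4.3.3 by limma 3.58.1 (empirical Bayes with trend, Benjamini-Hochberg over 7689 genes, two-sided, threshold 0.05), siPCBP2 minus untreated. The pseudocount of 1 understates changes of low genes. The fit was tested on simulated data with known changes. Leaving out each library, another pseudocount, no filter, a stricter filter, 2 scalings, no trend and a replicate block were alternatives.

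The members and lists were chosen with earlier results of these data known. Named from each list were up to 4 lower and 4 higher genes with the smallest p under 0.05 and the 2 highest of the rest, besides listed genes that start within 1 Mb and the 5 profiles nearest to NT5E; 2 of the genes so chosen are not reported here. All 5 listed members were tested and named. Gene models came from GENCODE 29, in which 7389 of 7698 genes have the deposited start and end, and the 3' UTR was that of the principal transcript. Promoters came from RefSeq tables (GRCh38.p14), which held all 5 members.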

Additional observations from a re-analysis of the deposited data

How the results depend on the processing

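In the 11 alternatives, NT5E, ENPP1 and ADORA2B kept a negative log2 fold change. NT5E lost its call in 8 of them: its log2 fold change was -1.41 after quantile normalization, -1.42 after scaling to 1 common total, -1.45 without a mean-variance trend, -1.45 with a replicate block (adjusted p = 0.249 by limma) and -1.50 to -1.40 with 1 library left out. Over all genes tested, 4 passed in the reported fit, 2 after quantile normalization and 2 after scaling. Without a trend or with the replicate block 0 passed, so the loss was not particular to NT5E. The cause of the lost calls was not tested, though fits without a library or with the block have fewer degrees of freedom. ENPP1 stayed under an unadjusted p of 0.05 in 11 of 11 alternatives and ADORA2B in 9 of 11, and neither passed the adjusted threshold in any. Of the 108 listed genes of all lists, NT5E included, 1 passed the threshold in the reported fit. The count was 0 after quantile normalization, after scaling, without a trend and with the replicate block. At an unadjusted p below 0.05, limma gave 21, 21, 19 and 17 of the 108 in these settings. Over all 7689 genes tested, limma gave 1191, 1167, 1220 and 940. Where a group kept 1 library, its spread was taken from the other group. ADK, at -0.021 with all libraries, turned to 0.0206 after quantile normalization and 0.0121 after scaling and ran from -0.16 to 0.12 with 1 library left out, and PNP from -0.0293, without untreated 2, to 0.15. The median of all genes moved from -0.04 to 0.0019 under quantile normalization. Same-numbered libraries did not deviate together (r = -0.0888 across 7689 genes), so the titles' numbers are not taken as pairs. Depth is unknown, so no counting error is given for any value.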
